A study of Mus musculus with 8 samples.

Results

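Regulatory T cells (Tregs) of the wound were taken as the cells that held at least 1 UMI of Foxp3, at least 1 UMI summed over the CD3 genes Cd3d, Cd3e and Cd3g, and at most 1 UMI of Csf1r, the receptor gene of macrophages. A UMI is a molecular tag that counts 1 captured transcript. Cells were barcodes with over 200 genes outside the mitochondrial genome and under 20% mitochondrial UMIs. Of 35158 such cells, 214 met the rule. The members were thus chosen by measured values, and their Foxp3, CD3 and Csf1r counts are a description with no test.

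Live CD45+ leukocytes were sorted with an APC anti-CD45 antibody and calcein AM from 5 mm full-thickness back wounds on days 1, 3, 5 and 7. The diabetic group were male C57BL/6J mice given streptozotocin (STZ), a toxin of insulin-producing cells, at 120 mg/kg and 4 weeks of age after a 12 h fast, and used when their glucose reached 16.5 mmol/L. Control mice were male C57BL/6J mice, and no treatment of theirs is described. Each of the 8 libraries pooled 5 mice, with 1 library for each group and day, so the spread between mice was not measured. The methods describe a sort on CD45, while another passage of the study speaks of a sort on myeloid markers, and the effect of the latter on T cell numbers was not tested.

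Foxp3 is the transcription factor that defines Tregs, a CD4 lineage that restrains other leukocytes. Tregs take up IL-2 through a receptor that contains Il2ra and block costimulation with Ctla4. In skin and other tissues, many carry the IL-33 receptor Il1rl1 and Klrg1, an inhibitory receptor, and these tissue Tregs are known for a part in repair.

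The tables held 19236522 to 33842509 UMIs per library, and 3266 to 5436 cells were kept in each. Control day 5 stood apart, with 71.4% of its barcodes kept and a median of 8234 UMIs per cell, against 89.2% to 99.0% and 2575 to 5219 UMIs in the other libraries. Cells carry running numbers in the tables, so barcodes shared between libraries could not be counted. Members held a median of 4757 UMIs (371 to 22069) and 1870 genes. Scrublet called 0 of the members as doublets and under 0.5% of all cells, so it did not work as a caller, and 6 members were in the highest 5% of its scores.

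The label was checked on the 5 markers that the rule did not use. At least 3 of Ctla4, Ikzf2, Tnfrsf4, Klrg1 and Icos had a UMI in 183 of the 214 members (85.5%), and all 5 did in 97 (45.3%). Among 735 T cells with an alpha-beta receptor constant chain, no gamma-delta chain and no Foxp3 UMI, which serve as the comparator below, at least 3 were seen in 122 (16.6%) and all 5 in 11 (1.497%). None of the 5 was seen in 5 members (2.34%). A constant chain of the alpha-beta receptor (Trac, Trbc1 or Trbc2) was found in 207 members (96.7%). Trdc, the gamma-delta chain, was found in 19 (8.88%), and 0 of the 214 members held Trdc without an alpha-beta chain (upper end of the exact binomial interval 1.71%). This limit is on detection only and does not bound the share of gamma-delta cells. The co-receptor Cd4 was seen in 132 members (61.7%) and Cd8a or Cd8b1 in 12 (5.61%).

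Depth and free RNA bear on such detection. After each cell was thinned to 1000 UMIs, Ctla4 was found in 60.1% of members, 14.2% of comparator T cells and 0.238% of a neutrophil reference, that is, cells with at least 2 UMIs of the neutrophil gene Csf3r and none of CD3. Ikzf2, which encodes the Ikaros-family factor Helios, followed at 43.2%, 5.97% and 0.371%. Tnfrsf4 (OX40, a costimulatory receptor) was found in 43.7%, 13.5% and 0.410%, and Klrg1 in 35.7%, 5.28% and 0.212%. Icos, a costimulatory receptor of many activated T cells, was found in 81.7%, 54.4% and 1.43%. The reference was higher on diabetic day 7, which gave 108 of the members: there Ctla4 was found in 58.3% of members and 3.04% of the reference, Ikzf2 in 53.7% and 2.49%, and Icos in 83.3% and 8.56%. All 5 markers were above the reference there too, and Icos was common in comparator T cells. Shares of members with a UMI of Il10, Gzmb, Penk, Tcf7 or Mki67, given below, are at full depth and have no background share beside them.

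Foxp3 UMIs per member ran from 1 to 20 with a median of 3, and CD3 UMIs from 1 to 24 with a median of 5. The 53 members with a single Foxp3 UMI held Ctla4 at 612 CPM (UMIs of a gene per 1000000 UMIs summed over the cells), against 1644 in the 161 members with 2 or more and 96.6 in the 1966 T cells with none. At the CD3 threshold, the 38 members with 1 UMI held Ctla4 at 827 CPM, and the 101 cells just outside with none held 78.1. At the Csf1r threshold, the 92 members with 1 UMI held 1613 and the 86 cells just outside with 2 held 1021. In all, 322 cells with Foxp3 and CD3 were left out for 2 or more Csf1r UMIs. Of these, 176 came from diabetic day 7, 96 from control day 7, 27 from control day 5 and 12 from diabetic day 5. The summed macrophage markers of the 322 cells stood at 16082 CPM, against 3171 in members with no Csf1r UMI and 4135 in members with 1.

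A Foxp3 UMI was also met in cells that should lack the gene. It was found in 0% to 0.585% of the neutrophil reference in the libraries of days 1, 3 and 5, in 2.73% on control day 7 and in 7.67% on diabetic day 7 (28 of 365, exact binomial 95% interval 5.16% to 10.9%). The reference cells held a median of 2702 UMIs on control day 7 and 2619 on diabetic day 7. This background was highest where members were most numerous. The part of free RNA in the counts of members was not tested.

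The first comparison asked how common Tregs were in diabetic and control wounds over time. In control wounds they made up 0.0907% of cells on day 1 (4 of 4412), 0.333% on day 3 (16 of 4805), 0.306% on day 5 (10 of 3266) and 0.580% on day 7 (27 of 4653). In diabetic wounds the shares were 0.105% (5 of 4757), 0.110% (6 of 5436), 0.908% (38 of 4183) and 2.96% (108 of 3646). The highest share of each group was thus that of day 7, and the diabetic share lay above the control share on days 1, 5 and 7 and below it on day 3. Over all days the groups overlapped.

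The fold of diabetic over control was 1.16 on day 1 (95% interval 0.250 to 5.84), 0.331 on day 3 (0.106 to 0.892), 2.97 on day 5 (1.45 to 6.68) and 5.10 on day 7 (3.32 to 8.10). These intervals cover counting error only and leave out the spread between mice and captures. The folds also rest on the Csf1r limit. On day 5 it left out 27 cells with Foxp3 and CD3 in control wounds and kept 10. In diabetic wounds of day 5 it left out 12 and kept 38. On day 7 it left out 96 in control and 176 in diabetic wounds, and kept 27 and 108. In control wounds the limit thus took out more such cells than it kept on both days, and in diabetic wounds of day 5 it took out fewer. Folds with these cells counted in were not computed. The folds of days 5 and 7 therefore hold for this limit only and are no measure of all cells with Foxp3 and CD3. On day 1 the counts of 4 and 5 cells could not show a difference. The mean log2 difference over the 4 days was 0.64, with 3 of 4 days higher, and an exact two-sided permutation test within days gave p = 0.5. The smallest p that 4 pairs allow is 2 of 16 arrangements, so this design could not pass 0.05. Without day 7 the mean was 0.06, and without day 3 it was 1.38.

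**Figure D1:**
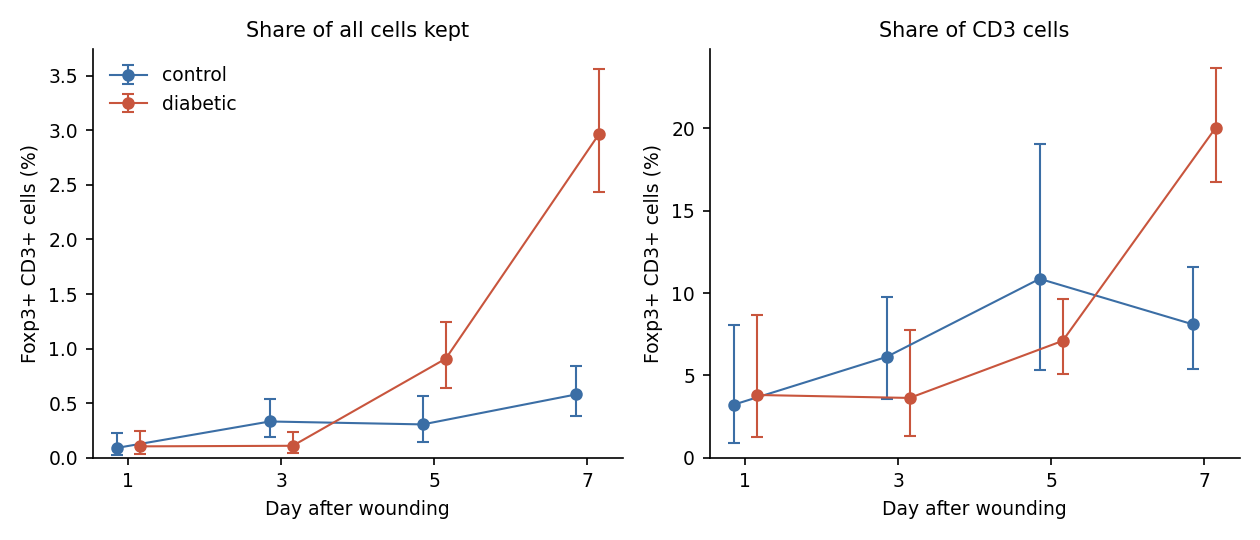
Share of Tregs by day after wounding (x axis, days) among all cells kept and among CD3 cells (y axes, percent), with control and diabetic libraries as separate points and exact binomial 95% intervals as bars. Among all cells the diabetic share reached 2.96% on day 7 against 0.580% in control, and among CD3 cells the diabetic share was higher on days 1 and 7 and lower on days 3 and 5.

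The second measure took Tregs as a share of CD3 cells, which removes the part that comes from the number of all T cells. CD3 cells here had at least 1 CD3 UMI and at most 1 Csf1r UMI. In control wounds the share was 3.23% of 124, 6.13% of 261, 10.9% of 92 and 8.11% of 333 CD3 cells on days 1, 3, 5 and 7. In diabetic wounds it was 3.82% of 131, 3.64% of 165, 7.10% of 535 and 20.04% of 539. The diabetic share was above the control share on days 1 and 7 and below it on days 3 and 5.

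The fold of diabetic over control was 1.18 (0.255 to 5.96) on day 1, 0.593 (0.190 to 1.60) on day 3, 0.653 (0.319 to 1.47) on day 5 and 2.47 (1.61 to 3.92) on day 7. The interval lay above 1 on day 7 and held 1 on the earlier days. The mean log2 difference was 0.05 with 2 of 4 days higher, and the exact two-sided permutation test within days gave p = 1. Leaving out day 7 turned the mean to -0.37.

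At equal depth the diabetic share of day 7 was again the higher. With cells thinned to 1000 UMIs, 12.6% of 475 CD3 cells in diabetic and 6.06% of 396 in control wounds met the rule on day 7, and on day 5 the values were 4.80% of 354 and 4.00% of 100, so that the order of day 5 changed. The Csf1r limit was applied to the thinned counts, and control CD3 cells thereby rose from 333 to 396 on day 7 and from 92 to 100 on day 5, so cells over the limit at full depth entered. With at least 2 Foxp3 UMIs asked for, the day 7 shares of CD3 cells were 14.1% in diabetic and 5.41% in control wounds. The day 5 shares were 6.36% and 5.43%, so that the order of day 5 changed here too, and of all cells on day 5 they were 0.813% and 0.153%. On day 1 they were 3.05% and 3.23% of CD3 cells, from 4 members each, and on day 3 they were 3.03% and 5.75%. A share of CD45+ cells depends on all other leukocytes in the sort, and more Tregs cannot be told apart from fewer cells of other kinds.

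The next comparison set the Tregs of each library against the Foxp3-negative alpha-beta T cells of the same library, on genes that neither gate used. Sums of UMIs were formed for each library and cell set, and 5 libraries had at least 10 members: control days 3, 5 and 7 and diabetic days 5 and 7. Values below are CPM, and tests are edgeR's quasi-likelihood test with Benjamini-Hochberg adjustment over all 6228 genes. Of these, 661 differed (10.6%), 267 higher (4.29%) and 394 lower (6.33%) in Tregs. The self-test on simulated sums called 169 of 200 changed genes, of which 182 were tested. Its changes were large and all of the same size, so the share recovered does not hold for smaller differences. Members were deeper (median 4757 UMIs) than comparator cells (3729), and with both thinned to 2000 UMIs 359 genes were called, 321 of them among the 661. The thinned fit held 4 libraries and tested 4660 genes.

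The inhibitory receptor Ctla4 stood at 1778, 1418, 895 and 1301 in Tregs of control days 1, 3, 5 and 7 and at 1751, 1010.0, 1489 and 1501 in diabetic wounds. Comparator T cells held 103 to 289. The ranges of the sets did not overlap, and Ctla4 was 6.99-fold higher in Tregs (log2 2.80 ± 0.18 SE, adjusted p = 2.41e-12). Ikzf2 stood at 803, 502, 969.7 and 632 in control and at 447, 682, 859.6 and 1026 in diabetic Tregs, against 28.5 to 176 in comparator cells. It was 10.2-fold higher (log2 3.35 ± 0.24, adjusted p = 2.66e-11), again with no overlap.

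Klrg1 was at 746, 546, 765 and 976 in control Tregs and at 224, 934, 988 and 599.9 in diabetic Tregs, against 43.6 to 164 in comparator cells, a log2 difference of 3.26 ± 0.25 (adjusted p = 1.23e-10). Tnfrsf4 was at 516, 893, 895 and 833 in control and at 1229.5, 505, 784 and 888 in diabetic Tregs, against 63.0 to 263, a log2 difference of 2.15 ± 0.20 (adjusted p = 7.46e-09). Icos differed least of the 5 markers, with 2237, 2599, 3543 and 4306 in control and 3689, 1591, 3661 and 3731 in diabetic Tregs against 1286 to 2200.4 in comparator cells (log2 0.96 ± 0.11, adjusted p = 2.95e-07). For Icos the ranges overlapped across libraries, although Tregs were higher within each. All 5 markers were called under each of the alternatives run.

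**Figure D2:**
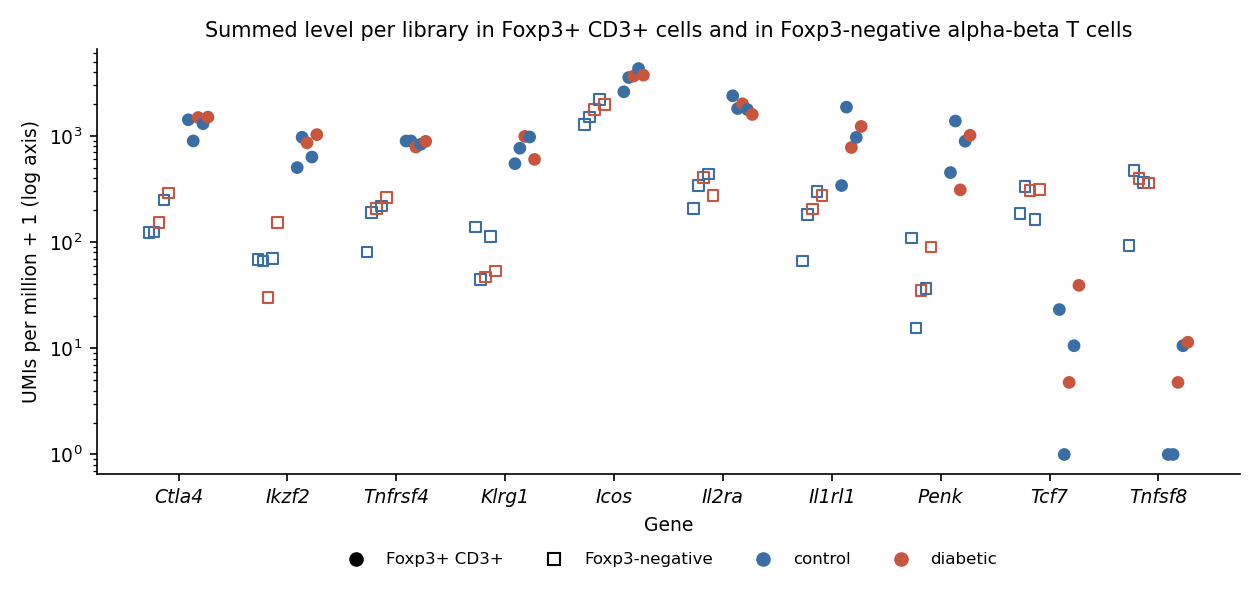
Levels of 10 genes (x axis) in CPM plus 1 (y axis, log axis) in the 5 libraries with at least 10 members, with Tregs as filled circles and Foxp3-negative alpha-beta T cells as open squares. Ctla4, Ikzf2, Klrg1 and Il2ra lie apart in the sets, Icos lies close, and Tcf7 and Tnfsf8 lie lower in Tregs.

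Other genes of the Treg core were also higher. Of the 18 core genes tested, 13 were higher and 1 was lower, with a median log2 difference of 2.06 against -0.02 over all genes. Il2ra, the alpha chain of the IL-2 receptor, stood at 1377 to 2525 in the 8 libraries of Tregs and at 207 to 437 in comparator cells (log2 2.48 ± 0.17, adjusted p = 9.6e-12). The costimulatory receptors Tnfrsf9 (4-1BB, log2 2.50 ± 0.16, adjusted p = 2.41e-12) and Tnfrsf18 (GITR, log2 1.97 ± 0.20, adjusted p = 3.38e-08) were higher as well. Ikzf4, the Ikaros-family factor Eos, had a median over the 5 libraries of 172 in Tregs and 11.8 in comparator cells (log2 3.61 ± 0.36, adjusted p = 2.7e-08).

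The TGF-beta activators gave large differences from low levels. The integrin chain Itgb8 stood at 148, 279.7 and 124 in control days 3, 5 and 7 and at 128 and 121 in diabetic days 5 and 7, against 0 to 8.77 in comparator cells (log2 4.49 ± 0.43, adjusted p = 1.66e-08). Lrrc32 (GARP, which holds latent TGF-beta at the surface) had medians of 53.7 and 5.31 (log2 2.83 ± 0.57, adjusted p = 0.00105). The integrin chain Itgav, which pairs with Itgb8, was higher by 1.64 ± 0.19 on the log2 scale (adjusted p = 4.31e-07). Of the 12 tested genes of the TGF-beta list these 3 were higher and 3 were lower. Tgfbr2 (log2 -1.58 ± 0.24, adjusted p = 2.9e-05), Smad3 (-1.34 ± 0.29, 0.00237) and the inhibitor Smad7 (-0.87 ± 0.19, 0.00211) were lower in Tregs. The cytokine gene Tgfb1 itself did not pass (-0.18 ± 0.27, 0.779).

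Nrp1, often used to mark thymus-derived Tregs, was the 1 core gene that was lower, at 7.38, 0 and 28.7 in Tregs of control days 3, 5 and 7 and at 3.77 and 26.01 in those of diabetic days 5 and 7. Comparator cells held 19.5, 65.5 and 76.9 in these control libraries and 63.1 and 46.0 in the diabetic ones (log2 -1.80 ± 0.49, adjusted p = 0.0154). The call was lost with at least 20 members (adjusted p = 0.0576), with no Csf1r UMI (0.166) and without day 5 (0.309), and Nrp1 was not tested in cells thinned to 2000 UMIs. The ectoenzyme genes Entpd1 (0.03 ± 0.26, 0.961) and Nt5e (-0.16 ± 0.28, 0.794) and the IL-2 receptor beta chain Il2rb (-0.13 ± 0.14, 0.659) did not pass.

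Among the genes of tissue and repair Tregs, 9 of the 18 tested were higher and 0 lower, with a median of 0.86. Il1rl1 was at 1090.0, 339.7, 1865 and 966 in control Tregs and at 1192, 783, 777 and 1228 in diabetic Tregs, against 21.7 to 299 in comparator cells (log2 2.16 ± 0.19, adjusted p = 1.74e-09), with no overlap. It had a UMI in 124 members (57.9%), Klrg1 in 130 (60.7%), both in 94 (43.9%) and at least 1 of them in 160 (74.8%). Penk, which encodes the precursor of enkephalin peptides, was at 0, 450.4, 1380.0 and 889.9 in control and at 596, 353, 309 and 1013 in diabetic Tregs, against 0 to 108 in comparator cells (log2 3.46 ± 0.29, adjusted p = 7.23e-10). The groups overlapped only through control day 1, where 4 members held no Penk UMI. Its transcripts were seen in 65 members (30.4%), fewer than for Il1rl1 or Klrg1.

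The transcription factors Batf (log2 1.17 ± 0.22, adjusted p = 0.00051), Prdm1 (Blimp-1, 1.21 ± 0.22, 0.000304), Maf (1.22 ± 0.17, 1.08e-05) and Rora (0.65 ± 0.15, 0.00318), which take part in effector and tissue Treg programmes, were higher. So was Itgae, the CD103 integrin chain of tissue-resident T cells (1.57 ± 0.19, 5.71e-07). Rora was not called with the Cd4 comparator, with thinned cells or in other settings given below with the T helper regulators. The chemokine receptor Ccr8 passed closely (1.27 ± 0.41, 0.0419). Gata3, which is linked to tissue Tregs, did not pass, with 168 to 449.7 in the Tregs and 216 to 301 in the comparator cells of the 5 libraries (log2 0.38 ± 0.19, adjusted p = 0.24). The number of this list called higher ran from 5 with comparator cells limited to Cd4 UMIs to 12 with members limited to at least 2 Foxp3 UMIs.

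Suppressive molecules formed the next list. Of 8 genes tested, 2 were higher, Ctla4 and the lectin gene Lgals1 (log2 0.60 ± 0.13, adjusted p = 0.00255). With no Csf1r UMI, without day 5 or with all libraries 1 of 8 was higher, and Lgals1 was not called. The cytokine gene Il10 was at 55.9 to 182 in control days 3, 5 and 7 and at 128 and 213 in diabetic days 5 and 7, against 31.8 to 168 in the same comparator cells (log2 0.82 ± 0.28, adjusted p = 0.0556). It had a UMI in 99 members (46.3%). The cytotoxic protease gene Gzmb, seen in 127 members (59.3%), did not differ by the test (0.34 ± 0.24, 0.437). A p above the threshold does not show that levels were equal.

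**Figure D3:**
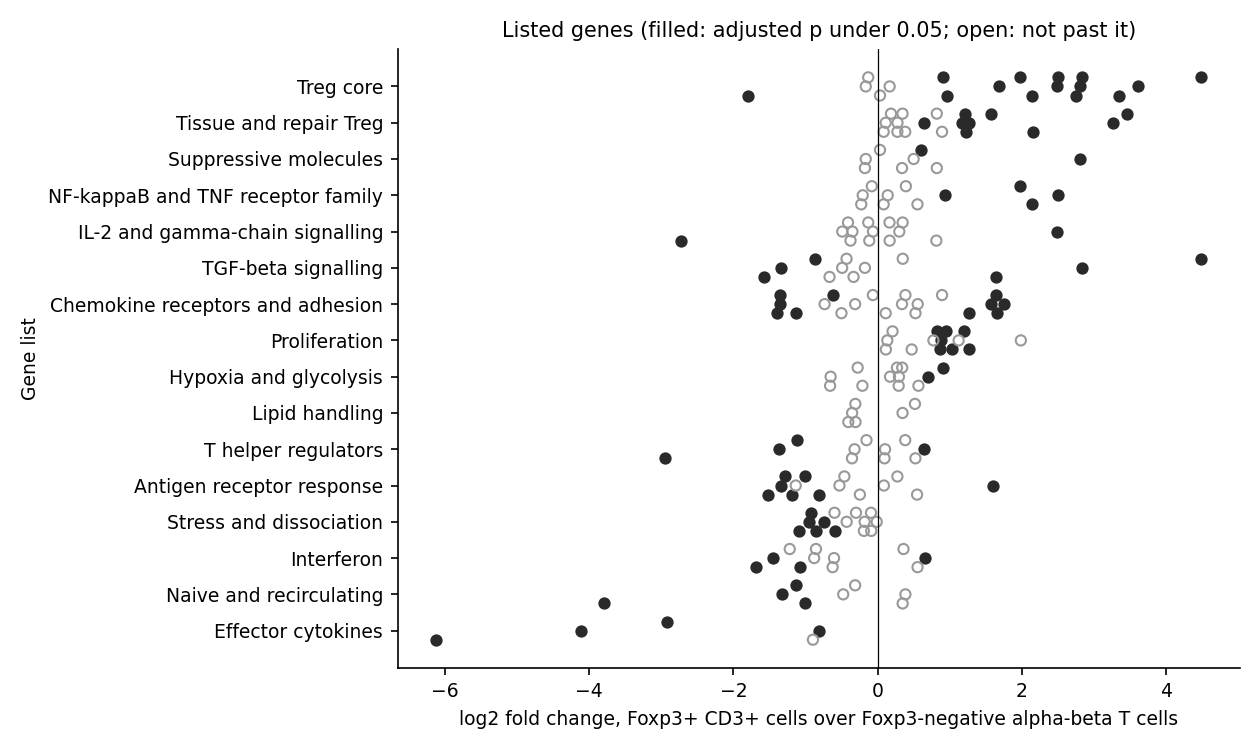
Log2 differences of Tregs against Foxp3-negative alpha-beta T cells (x axis) for each tested gene of 16 lists (y axis), with filled points for adjusted p under 0.05 in edgeR's quasi-likelihood test. Most Treg core genes lie to the right, and effector cytokines and antigen receptor response genes lie mostly to the left.

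Effector cytokine genes were lower in 4 of the 5 tested, with a median of -2.91. When Treg sums alone were fitted, as in the comparison of diabetic with control Tregs, 1 gene of this list passed the low-count filter. Ifng and Il22 were near 0 in Tregs and entered here through comparator cells, so they could hardly come out higher. Ifng was at 28.7 in Tregs of control day 7, at 6.94 in those of diabetic day 7 and at 0 in the other 6 libraries, against 25.2 to 214 in comparator cells (log2 -4.12 ± 0.48, adjusted p = 4.87e-07). Il22, a cytokine that acts on keratinocytes, reached at most 1.73 in Tregs and 203 in comparator cells (adjusted p = 1.57e-07). Il17f (log2 -2.91 ± 0.67, adjusted p = 0.00401) and Tnf (-0.81 ± 0.21, 0.011) were lower too, while Il17a did not pass (-0.90 ± 0.52, 0.332). The count of lower genes was 2 of 6 tested with the Cd4 comparator, 2 of 5 with DESeq2, 2 of 5 without day 5 and 2 of 3 without day 7. Ifng was called in each of these settings, and with the Cd4 comparator Tnf (-0.21, adjusted p = 0.733) and Il17f (-2.88, 0.067) were not. Il2 and Il21 had 0 UMIs in all 214 members. Tbx21, the T-bet factor of type 1 cells, was lower by the same test (-2.95 ± 0.54, 0.000295).

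The cytokine-family gene Tnfsf8 (CD30 ligand) showed the largest fall among genes that changed the same way in every library. It was at 0, 0, 0 and 9.57 in control and at 0, 25.2, 3.77 and 10.4 in diabetic Tregs, against 91.98 to 473 in comparator cells (log2 -5.65 ± 0.36, adjusted p = 2.41e-12). Tnfsf11 (RANK ligand) was lower by -4.33 ± 0.49 (adjusted p = 2.5e-07). The survival factor Bcl2 was found in Tregs of diabetic days 5 and 7 only, at 11.3 and 19.1, against 25.2 to 74.0 in comparator cells (-2.72 ± 0.49, 0.0003). Cd8a (-4.78 ± 0.47, 2.44e-08), Gzmk (-3.89 ± 0.67, 0.000156) and the killer-cell factor Eomes (-3.80 ± 0.58, 2.61e-05) were also among the 10 largest falls of genes that changed the same way in every library. The comparator was not limited to Cd4 cells and held CD8 T cells.

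The remaining falls among those 10 were Sema6d, the NK receptor gene Klra9, and Gata2 and Cpa3, which are genes of mast cells. Markers of other cell types moved in this comparison: all 6 tested NK cell markers, all 4 tested mast cell markers and 5 of 9 dendritic cell markers were lower in Tregs, and of 7 neutrophil markers 3 were lower and 1 was higher. In the fit of diabetic against control Tregs, 1 NK cell and 1 mast cell marker passed the low-count filter. Most NK cell and mast cell markers thus entered here with the comparator counts, and a lower value was to be foreseen for them. With comparator cells limited to those with a Cd4 UMI and no Cd8a or Cd8b1 UMI, 330 genes were called, 283 of them among the 661, and 0 of the 2 NK cell and 0 of the 3 mast cell markers still tested were among them. Of 6 dendritic cell markers 1 was then higher in Tregs (Cd74) and 0 were lower, and of 5 neutrophil markers 1 was higher (Il1r2) and 0 were lower. Under that comparator 11 of 17 tested core genes were higher and 2 were lower.

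Of the 10 largest rises among genes that changed the same way in every library, Itgb8, Ikzf4 and Penk are given above. Ccdc22 was the largest (log2 4.73 ± 0.54, adjusted p = 2.76e-07), at 66.5 to 131 in the 5 libraries of Tregs and 0 to 8.24 in comparator cells. On GRCm38, Ccdc22 (chromosome X, 7593809 to 7605517, minus strand) shares 1437 bases with the 3′ end of Foxp3 (7573644 to 7595245, plus strand). Whether the counting used strand is not given in the sources used here, so Ccdc22 reads are uncertain and may be those of Foxp3, which the rule used. The others were Tff1 (4.39 ± 0.68, 3.37e-05), a trefoil factor, Ky, Hsbp1l1, Tmem158, Frmd5 and the collagen gene Col18a1, each with a median of 66.5 or less in Tregs.

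Genes of naive and recirculating T cells were lower in 4 of the 8 tested. Tcf7, the factor TCF-1, was at 0, 22.2, 0 and 9.57 in control and at 0, 0, 3.77 and 38.1 in diabetic Tregs, against 162 to 335 in comparator cells (log2 -3.79 ± 0.34, adjusted p = 5.27e-09), with no overlap. It had a UMI in 15 members (7.01%). Lef1 (-1.32 ± 0.43, 0.0477), Satb1 (-1.01 ± 0.18, 0.000295) and the lymph node homing receptor Ccr7 (-1.13 ± 0.30, 0.0123) were lower as well. The exit receptor S1pr1 did not pass (-0.31 ± 0.27, 0.55). With the Cd4 comparator, with DESeq2, with cells thinned to 2000 UMIs and against gamma-delta T cells 2 genes of the list were lower, Tcf7 and Satb1, and without day 5 it was 1, Tcf7. With the Cd4 comparator 1 gene of the list was higher, and against gamma-delta T cells 2 were.

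Receptors for homing into tissue moved in both directions, 5 higher and 5 lower of 20. Ccr2, the receptor for monocyte chemoattractants, was at 402, 339.7, 802 and 1158 in control and at 931, 328, 1063 and 1182 in diabetic Tregs, against 212 to 376 in comparator cells (log2 1.66 ± 0.19, adjusted p = 2.95e-07). The ranges overlapped on day 3 and Tregs were higher within each library. Ccr6 (1.75 ± 0.49, 0.0168) was higher. Cxcr6 (-1.40 ± 0.24, 0.000143), Cxcr4 (-0.61 ± 0.19, 0.0297) and the integrin chains Itga4 (-1.35 ± 0.37, 0.0158) and Itgb1 (-1.36 ± 0.21, 4.24e-05) were lower. The count of lower genes was 2 with the Cd4 comparator, with DESeq2 and without day 5, and 3 with cells thinned to 2000 UMIs. The count of higher genes ran from 3 to 7 over the alternatives.

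Immediate response genes of the antigen receptor were lower in 6 of the 14 tested and higher in 1, with a median of -0.67. Nr4a1, an early target of receptor signalling, ran from 261 to 576 in the 5 libraries of Tregs and from 545 to 1293 in comparator cells (log2 -1.01 ± 0.17, adjusted p = 0.00015). Nr4a3 (-1.28 ± 0.17, 3e-06), Nr4a2 (-1.52 ± 0.26, 0.000135), Egr1 (-1.34 ± 0.23, 0.000157) and the NF-kappaB inhibitor Tnfaip3 (-1.19 ± 0.15, 1.97e-06) were lower. The phosphatase gene Dusp4 was higher (1.60 ± 0.22, 8.06e-06). Stress and dissociation genes moved beside them: 6 of 14 were lower and 0 higher, among them Jun (-0.93 ± 0.21, 0.00296) and Fos (-0.74 ± 0.19, 0.00781). With the Cd4 comparator 1 stress gene was lower and 1 higher. The part of tissue dissociation in these differences was not tested.

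Proliferation genes were higher in 7 of 14, with a median of 0.87. Mki67, a marker of dividing cells, was at 406, 709 and 163 in Tregs of control days 3, 5 and 7 and at 554 and 442 in diabetic days 5 and 7, against 309.6, 145 and 104 and 217 and 261 in comparator cells (log2 0.95 ± 0.21, adjusted p = 0.00262). Within each library Tregs were higher, and across libraries the sets overlapped. Birc5 (1.27 ± 0.27, 0.00154), Top2a (0.87 ± 0.22, 0.00724) and Rrm2 (1.04 ± 0.28, 0.0132) were among the 7. The count was 0 with the Cd4 comparator, 1 with cells thinned to 2000 UMIs and 1 with cells without a Csf1r UMI, the last 2 settings in fits of 4 libraries.

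Smaller lists gave these counts, and over all genes 4.29% were higher and 6.33% lower. A count of 1 gene in a list of this size is not far from those shares. Of the 11 NF-kappaB and TNF receptor family genes, 4 were higher and 0 lower, and of the 12 hypoxia and glycolysis genes 2 were higher, Pkm (0.70 ± 0.15, adjusted p = 0.0019) and Tpi1 (0.91 ± 0.26, 0.0226). With cells thinned to 2000 UMIs, with at least 20 members or without day 5, 0 of the 12 hypoxia and glycolysis genes were called. The IL-2 signalling list had 1 of 14 higher (Il2ra) and 1 lower (Bcl2). Among T helper regulators 1 of 11 was higher, Rora, and 3 were lower, Tbx21, Stat4 (-1.12 ± 0.27, 0.0064) and Bhlhe40 (-1.37 ± 0.20, 1.18e-05). Rora was not called with the Cd4 comparator, thinned cells, at least 2 CD3 UMIs or no Csf1r UMI. It was not called without day 5 or without day 7 either. Interferon genes had 1 higher, Ifi27l2a (0.66 ± 0.17, 0.0116), and 3 lower of 11, Isg15 (-1.07 ± 0.32, 0.0267), Ifit1 (-1.45 ± 0.44, 0.0324) and Slfn1 (-1.69 ± 0.34, 0.00101). The count of lower interferon genes was 1 with DESeq2, with no Csf1r UMI, without day 5 and without day 7. The count of higher ones was 0 with the Cd4 comparator and with thinned cells. Lipid handling genes had 0 of 6 called in edgeR's quasi-likelihood test.

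The change of Tregs with time was tested as 1 slope per day over the same 5 libraries, with treatment as a covariate. Of 3239 genes tested, 75 were called (2.32%), 54 rising (1.67%) and 21 falling (0.648%). Day 3 was represented by a single library, control, so that the slope rests on it: without day 3, 19 genes were called, 13 of them among the 75. Of the proliferation list 4 of 12 fell and 0 rose, with a median slope of -0.38 against 0.00 over all genes. Without day 3 the count was 1 of 11, Stmn1, with DESeq2 it was 2 of 12, and with no Csf1r UMI it was 8 of 10. Over all genes 4 of 3797, 8 of 3239 and 89 of 3089 fell in these settings.

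Pclaf, a replication-associated protein, was at 0, 554, 149 and 47.8 in control Tregs and at 0, 479.7, 192 and 101 in diabetic Tregs (slope -0.76 ± 0.13 log2 per day, adjusted p = 0.00363). Rrm2, a subunit of ribonucleotide reductase, was at 0, 339.7, 149 and 28.7 and at 37.3, 227, 151 and 46.8 (slope -0.84 ± 0.16, adjusted p = 0.00604). Stmn1, a microtubule regulator, was at 0, 746, 783 and 105 and at 0, 505, 429.8 and 229 (slope -0.56 ± 0.13, adjusted p = 0.0271). In both groups these genes were highest on day 3 or 5 and low on day 7, and day 1, with 4 and 5 members, stood outside the fit.

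The replication genes Pcna (-0.41 ± 0.11, adjusted p = 0.0441), Mcm5 (-0.61 ± 0.16, 0.036) and Lig1 (-0.55 ± 0.14, 0.0337) fell too, with the nucleotide kinase Nme1 (-0.70 ± 0.12, 0.00256) and the cytokine Mif (-0.55 ± 0.12, 0.02). The nuclear transport genes Ran (-0.50 ± 0.10, 0.0104) and Ipo5 (-0.79 ± 0.21, 0.0452) and the chromatin proteins Hmgn1 (-0.53 ± 0.13, 0.0322) and Banf1 (-0.52 ± 0.12, 0.02) fell as well. They completed the 10 steepest falls among called genes that changed the same way in every library or day pair. Mki67 did not pass (-0.25 ± 0.13, 0.376). It had a UMI in 5 of 16 members on control day 3 (31.3%), in 3 of 10 on control day 5 (30%), in 15 of 38 on diabetic day 5 (39.5%), in 2 of 27 on control day 7 (7.41%) and in 36 of 108 on diabetic day 7 (33.3%). The summed proliferation list stood at 803, 5678, 5613 and 1703 in control and at 708, 5302, 3702 and 2658 in diabetic Tregs. With all 8 libraries in the fit, 0 genes of the list were called, and the slope of Stmn1 was 0.0074.

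**Figure D4:**
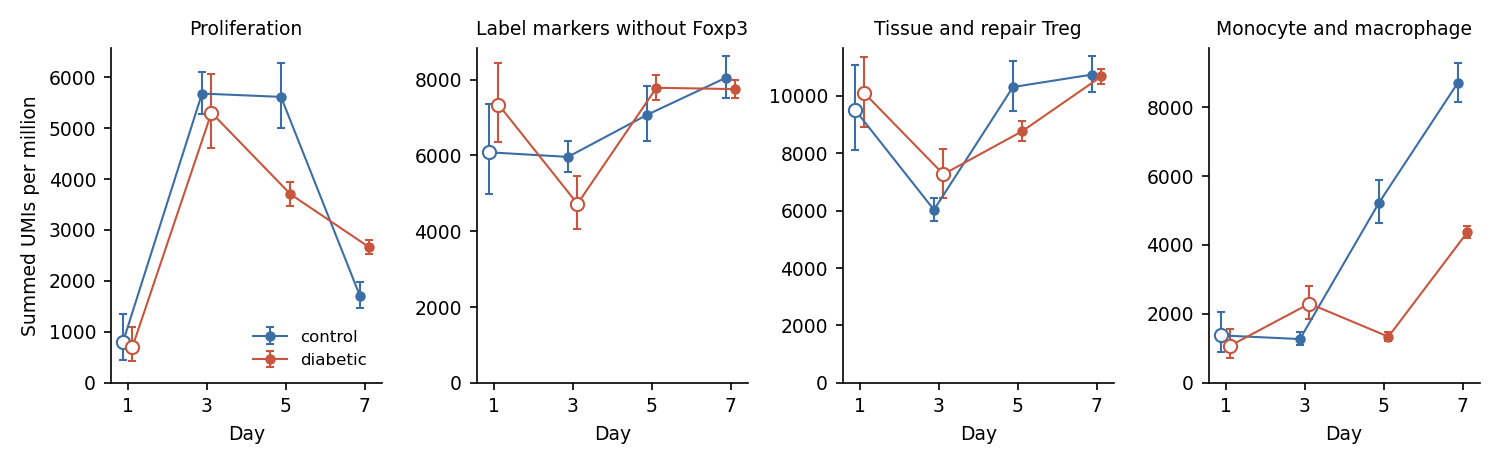
Summed level of 4 gene lists in Tregs (y axes, CPM) by day after wounding (x axis, days) in control and diabetic libraries, with open points for libraries with under 10 members and bars for 95% counting intervals. Proliferation genes were highest on days 3 and 5, the tissue list was lowest on day 3 in both groups, and macrophage genes were highest on control day 7.

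The identity genes of Tregs showed no slope that passed: 0 of 16 core genes and 0 of 18 tissue and repair genes were called in edgeR's quasi-likelihood test, with median slopes of 0.05 and 0.12. With cells without a Csf1r UMI 1 of 16 core genes (Tnfrsf9) and 3 of 17 tissue and repair genes (Pdcd1, Penk and Rora) rose. With at least 2 CD3 UMIs 1 of 16 (Tnfrsf9) and 2 of 18 (Penk and Rora) did, with at least 2 Foxp3 UMIs 1 of 16 (Tigit) and 2 of 18 (Il1rl1 and Penk), and with no filter on low counts 2 of 20 tissue and repair genes (Pdcd1 and Penk). Over all genes, 105 of 3089 rose with no Csf1r UMI and 53 of 3952 with at least 2 CD3 UMIs. For at least 2 Foxp3 UMIs it was 41 of 3752, and for no filter on low counts 79 of 12685. The summed tissue and repair list stood at 9523, 6033, 10313 and 10746 CPM in control and at 10097, 7272, 8777 and 10684 in diabetic Tregs, lowest on day 3 in both groups. Among the IL-2 and gamma-chain genes, Il7r rose (0.43 ± 0.09, adjusted p = 0.0144), from 384 on control day 3 to 895 and 1089.6 on day 5 and 1675 and 1392 on day 7. Socs3 (0.50 ± 0.13, 0.036), a feedback inhibitor of cytokine signalling, rose as well, as did Stat3 (0.43 ± 0.11, 0.0313). Without day 3, which had 1 library in the fit, none of Il7r (0.30, adjusted p = 0.505), Socs3 (0.62, 0.14) and Stat3 (0.28, 0.616) was called. With all 8 libraries none of the 3 was called either, and the slope of Stat3 was -0.027. Socs3 was also lost with DESeq2 (adjusted p = 0.141) and with at least 2 CD3 UMIs, at least 2 Foxp3 UMIs or no Csf1r UMI (0.0709 to 0.133).

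Many of the steepest rises were those of genes that mark other cell types. Apoe, a lipid carrier abundant in macrophages, rose by 0.82 ± 0.10 log2 per day (adjusted p = 0.000134), the complement genes C1qc by 0.90 ± 0.14 (0.00139) and C1qb by 0.74 ± 0.11 (0.00107), the scavenger receptor Mrc1 by 0.91 ± 0.23 (0.036), and the fibroblast collagen Col1a1 by 1.62 ± 0.28 (0.00363). The chemokines Ccl8 (1.01 ± 0.24, 0.0259) and Ccl7 (0.82 ± 0.17, 0.0104), the scavenger receptor Cd36 (0.91 ± 0.21, 0.0209), the endocytic adaptor Dab2 (0.85 ± 0.20, 0.0209), the protease Ctsl (0.88 ± 0.18, 0.0105) and Nisch (0.90 ± 0.22, 0.0293) also rose. They made up the rest of the 10 steepest rises among called genes that changed the same way in every library or day pair. Of the monocyte and macrophage markers 6 of 8 tested rose, of the dendritic cell markers 3 of 4, and of the fibroblast markers 3 of 3. Without day 3 these counts were 3 of 8, 0 of 4 and 3 of 3, and with DESeq2 they were 5 of 8, 3 of 4 and 0 of 3. Over all genes 15 of 3797 rose without day 3 and 23 of 3239 with DESeq2. Without Csf1r, the macrophage markers summed to 1377, 1270, 5222 and 8708 in control and 1081, 2298, 1338 and 4371 in diabetic Tregs. In comparator T cells they summed to 1337, 1928, 7033 and 8200 in control and to 1264, 3454, 1475 and 4697 in diabetic wounds. The level thus followed the library in both sets of T cells, and the part of macrophage RNA in these slopes was not tested. The macrophage gene Lyz2 had a UMI in 211 of 214 members (98.6%) and the neutrophil gene S100a8 in 173 (80.8%).

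Diabetic and control Tregs were compared on days 5 and 7, the days with at least 10 members in both libraries, with day as a block and 1 residual degree of freedom. Of 3797 genes tested, 5 were called (0.132%), 1 higher (0.0263%) and 4 lower (0.105%) in diabetic Tregs. In a self-test at this size, 0 of 200 changed genes were recovered, of which 165 were tested. The power was thus low, and a gene not called here is not shown to be equal.

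Ccl3, a chemokine that attracts leukocytes, was at 149 and 517 in control Tregs of days 5 and 7 and at 984 and 879 in diabetic Tregs (log2 1.49 ± 0.32, adjusted p = 0.00329). The diabetic libraries were higher on both days. The fold was 6.60 on day 5 (95% counting interval 3.30 to 15.4) and 1.70 on day 7 (1.28 to 2.30). On days 1 and 3, outside the fit, Ccl3 was at 1033 and 229 in control and at 2571 and 2424 in diabetic Tregs. Comparator T cells of days 5 and 7 held 371 and 813 in control and 2488 and 1756 in diabetic wounds, so Ccl3 was higher in diabetic libraries in both sets. Neutrophil transcripts in the same Tregs moved with it in part. S100a8 had a diabetic over control fold of 4.76 on day 3, 6.23 on day 5 and 1.04 on day 7, and S100a9 one of 4.05, 15.4 and 0.561, against 10.6, 6.60 and 1.70 for Ccl3. The 7 neutrophil markers summed to 709 and 3053 CPM in control and to 1809.7 and 2185 CPM in diabetic Tregs of days 5 and 7, and 0 of 4 tested were called. Neutrophils also express Ccl3, and the part of their RNA in this call was not tested. With DESeq2 or without the day block Ccl3 was not called.

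Apoe was at 1548 and 2957 in control and at 294 and 1573 in diabetic Tregs of days 5 and 7 (log2 -1.55 ± 0.25, adjusted p = 1.94e-06). Lyz2 was at 2089 and 2976 against 667 and 1408 (-1.33 ± 0.24, 3.49e-05), and C1qb at 559 and 1100.5 against 136 and 475 (-1.52 ± 0.32, 0.0024). Ctsk, a protease of osteoclasts and some macrophages, was at 279.7 and 76.6 against 3.77 and 15.6 (-3.61 ± 0.77, 0.0024). On day 3, outside the fit, Lyz2 was higher in diabetic Tregs, with a fold of 2.58 (counting interval 1.76 to 3.75). This was against its order on days 5 and 7. The day 3 folds of C1qb (1.37, 0.521 to 3.24) and Apoe (1.18, 0.652 to 2.06) had intervals that spanned no change. With DESeq2 or without the day block 0 of the genes Apoe, Lyz2, C1qb and Ctsk were called. With all libraries Apoe, Lyz2 and C1qb were not called and Ctsk was not tested, and Ctsk was not called without the highest 5% of doublet scores. All 4 are genes of macrophages, and Apoe, Lyz2 and C1qb are 3 of the 8 tested markers of that list, whose median was -1.35 against 0.02 over all genes. The macrophage markers of the neutrophil reference stood at 33490 and 26673 in control and at 7977 and 18467 in diabetic libraries of days 5 and 7, so the order of these days was the same in cells chosen for Csf3r and the lack of CD3. On control day 5 the reference cells held a median of 1918.5 genes, against 791 to 1033 in the other libraries. Whether the reference held macrophages was not tested. The part of macrophage RNA in the calls of Apoe, Lyz2, C1qb and Ctsk was not tested.

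**Figure D5:**
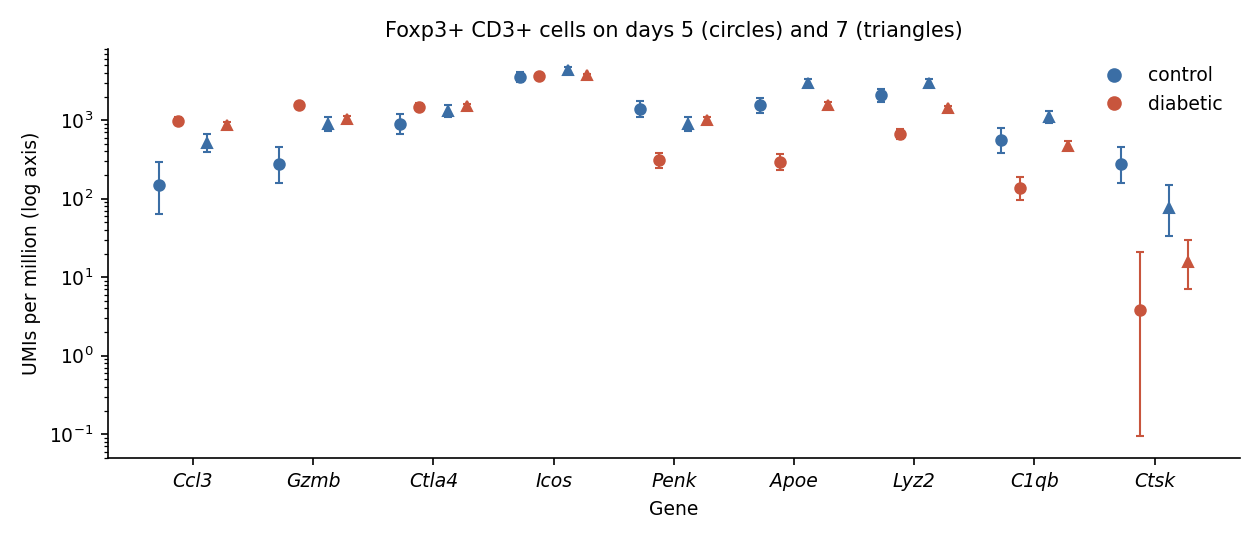
Levels of 9 genes (x axis) in Tregs in CPM (y axis, log axis) on day 5 (circles) and day 7 (triangles) in control and diabetic libraries, with bars for 95% intervals of a Poisson count (counting error only). Ccl3 was higher and Apoe, Lyz2, C1qb and Ctsk were lower in diabetic libraries on both days, while Icos was close in the groups.

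Of the 16 lists of T cell genes, 0 had a gene called between diabetic and control Tregs. Gzmb was called with no filter on low counts in edgeR's quasi-likelihood test, and Tnf, a proinflammatory cytokine, was called when all 8 libraries were used. Without that change Tnf was at 74.6 and 182 CPM in control and at 256 and 333 in diabetic Tregs on days 5 and 7 (log2 1.18 ± 0.45, adjusted p = 0.599), and its day 3 fold was 4.45 (2.39 to 8.399). In edgeR's quasi-likelihood test 177 genes (4.66%) had an unadjusted p under 0.05, and DESeq2 called 0 genes, with 28 (0.737%) at that unadjusted level. Neither share is above what that level would give with no difference. Gzmb came close, at 279.7 and 889.9 in control and at 1542 and 1032 in diabetic Tregs (log2 1.14 ± 0.29, adjusted p = 0.0514), with a fold of 5.51 on day 5 (3.30 to 9.94) and 1.16 on day 7 (0.930 to 1.46). Penk was at 1380.0 and 889.9 against 309 and 1013, so that the days went in opposite directions (-0.89 ± 0.29, 0.295). Ctla4 (0.47 ± 0.25), Ikzf2 (0.30 ± 0.28), Icos (-0.06 ± 0.19), Il1rl1 (-0.42 ± 0.26) and Il2ra (0.01 ± 0.23) each had an adjusted p of 0.999.

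Whether the diabetic difference was particular to Tregs was tested as an interaction of cell set and treatment over the same 5 libraries. Of 6228 genes, 0 were called (0%) by edgeR's quasi-likelihood test, with 209 (3.36%) at an unadjusted p under 0.05. DESeq2 also called 0, with 79 (1.27%) at that level. The self-test recovered 8 of 200 changed genes in this design, so it had little power, and no gene can be called particular to diabetic Tregs from these libraries.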

How the data were processed

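The authors sorted live CD45+ wound cells and made 1 single-cell library from 5 pooled mice for each group and day. Methods and record differ on the platform (BD Rhapsody against 10X Genomics). Reads were trimmed with fastp (0.20.1 per the submitters' processing notes), assigned to cells by UMI-tools and aligned by STAR to an Ensembl mouse genome (GRCm38), while the notes list mm9. The deposited counts are whole UMI counts per gene and cell, with no normalization. The filter used here leaves more cells than the total in the study's text. The cell numbers that the study lists by cluster also exceed that total.

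Cells were gated as described above with Python 3.11.15, numpy 2.4.6, pandas 2.3.3, scipy 1.17.1 and scanpy 1.11.5 (Scrublet, 30 components). Figures used matplotlib 3.10.9. UMIs were summed per library and cell set and tested with edgeR 4.0.16 in R 4.3.3 (quasi-likelihood F test, TMM, filterByExpr, adjusted p under 0.05), in libraries with at least 10 members. DESeq2 1.42.0 was an alternative. Each fit was tested on simulated sums (seed 7), with large changes of the same size and the same spread for all genes. Shares have Clopper-Pearson and UMI sums exact Poisson 95% intervals. Of the listed genes, 2 were not analysed here. Some listed genes are not reported here by name. The members and the gene lists were chosen with earlier results of these data known. Genes named are those of the lists, and for each comparison up to 10 in each direction with the largest change among those called that changed the same way in every library or day pair. Samples were grouped by the labels, and the p-values measure the spread between libraries only. Alternatives were other thresholds of the gate, thinned cells, other comparators, no low-count filter, at least 20 members per library, no highest 5% of doublet scores, and days left out in turn.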

Additional observations from a re-analysis of the deposited data

Results flagged for a closer look

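The diabetic difference in the share of Tregs among all cells did not point the same way on each day. The log2 of diabetic over control was 0.21 on day 1, -1.59 on day 3, 1.57 on day 5 and 2.35 on day 7. Among CD3 cells it was 0.24 on day 1, -0.75 on day 3, -0.61 on day 5 and 1.31 on day 7. Each day has 1 library per group, so the difference between days was not tested.

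Among cells left out of the main comparisons, 15.4% of the 1860 cells with at least 2 Csf1r UMIs on diabetic day 7 held a Foxp3 UMI (286 cells, exact binomial 95% interval 13.8% to 17.1%). On control day 7 it was 6.28% of 3311 and in the neutrophil reference of diabetic day 7 it was 7.67% of 365. Of those Csf1r cells without a CD3 UMI, 9.95% held Foxp3 on diabetic day 7 and 4.67% on control day 7. Median depths were 7984 UMIs in the Csf1r cells and 2619 in the reference of diabetic day 7. The part of doublets and free RNA in this share was not tested.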

How the results depend on the processing

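The log2 difference in the share of cells stayed above 0 under all alternatives run (0.06 to 1.38 with a day left out). Without the pairing by day (no block) its value was 0.64 and the exact permutation p 0.657. Among CD3 cells the mean of 0.05 was -0.0092 without the highest 5% of doublet scores and ran from -0.37 to 0.31 with a day left out, being -0.02 without day 1. The 5 genes called between diabetic and control Tregs became 0 with DESeq2 and 0 without the day block. With all libraries 6 were called, all 6 higher and 0 lower in diabetic Tregs, with Ccl3 shared, Apoe, Lyz2 and C1qb not called and Ctsk not tested, and leaving out day 5 or day 7, at least 20 members, 2 Foxp3 or 2 CD3 UMIs and no Csf1r UMI could not be fitted. The 75 genes called over days became 31 with DESeq2, 194 with no Csf1r UMI, 19 without day 3 and 8 with all libraries, where the slopes of Stat3 (-0.027) and Stmn1 (0.0074) turned. The 661 genes of the comparison with other T cells became 439 with at least 20 members, 340 with no Csf1r UMI, and 220 to 661 with a day left out (220 without day 5, 339 without day 7, 588 without day 3). The 661 is the value without day 1, which had no library in the fit and could change nothing. With the Cd4 comparator 330 and with thinned cells 359 were called. Against gamma-delta T cells Ccr7 turned to 0.82. The interaction count of 0 became 6 with no filter on low counts, 2 with at least 2 Foxp3 UMIs, 2 with no Csf1r UMI, and 0 to 6 with a day left out. Alternatives with no Csf1r UMI, at least 2 Foxp3 UMIs in gene tests, all libraries and gamma-delta cells were chosen after seeing the data. The cause of these changes was not tested. Of the named genes against other T cells, 199 results were no longer called under an alternative, 1002 were the same in direction and call, 8 were newly called and 1 turned.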
